A study of Arabidopsis thaliana with 54 samples.

Results

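The dusk change of long days was measured in whole Arabidopsis seedlings as the difference between ZT16, the last harvest in the light of a 16 h light and 8 h dark cycle (LD), and ZT20, after 4 h of dark, where ZT is the time in hours after lights on. The members are the LD libraries whose labels give these times, 3 replicates (A, B and C) at each, so that 6 of the 54 libraries of the series entered the main comparison. The full series holds 3 photoperiods and 6 time points, with 8 h of light per day in SD and 12 h in EQ. All seedlings were wild type Columbia 0 (Col-0). They grew for 10 days under 12 h of light and 12 h of dark at 22 °C and spent the last 48 h in their own photoperiod, so every group carries the same history up to that shift. The light intensity was 130 µmol per square metre and second in every group. Their age is 12 days in the labels, and the methods set the harvest 1 day after that. Each replicate pooled the seedlings of a single plate, roots and shoots together, so fewer cells of a type and less RNA per cell cannot be told apart. Groups of SD and EQ served as references for the LD change, either over the same hours, ZT16 to ZT20, when both were dark throughout, or over their own dusk, ZT08 to ZT12 in SD and ZT12 to ZT16 in EQ.

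At dusk a seedling loses a light signal and its source of new sugar at once. Through the night it lives on starch stored in the chloroplast, and when sugar runs low it turns on dark-inducible genes and enzymes that break down amino acids. Independent of light, the circadian clock brings up the MYB factors CCA1, LHY and RVE1 in the late night, ahead of dawn, and the genes for chlorophyll synthesis and for the antenna proteins of the photosystems, which hold the chlorophyll, answer both to the clock and to light.

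Between 2763127 and 3473953 counts per library fell on genes in these 6 libraries, and the spike-in RNAs took 0.143 to 0.176% of the counts at ZT16 and 0.128 to 0.151% at ZT20. Levels are given as CPM, the usual scale of counts relative to the normalised library total, on 1 normalised scale for all libraries. They are not divided by gene length, so only values of the same gene are compared. Antisense overlap is common in TAIR10.1: 27.6% of the genes matched to it have a partner gene opposite them, and these genes held 91.8% of the counts in the 6 libraries. The library kit named in the methods does not mark the strand of the RNA, whereas the alignment used a setting for stranded reads. How reads were divided between a gene and its opposite-strand partner was not tested, and a change in either may include reads of the other. Whether that setting affected the counts of genes without a partner was not tested either, so lacking a partner does not mark a safer count. Partner values are therefore given beside many of the genes, with the log2 fold change of the summed locus, meaning the counts of all genes that overlap on opposite strands directly or in a chain, where it departs from that of the gene.

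From ZT16 to ZT20 in LD, 1071 of the 8389 genes tested (12.8%) differed at an adjusted p under 0.05. Of these 536 were higher at ZT20 (6.39% of the genes tested) and 535 were lower (6.38%). A list below with only 1 or 2 calls is described by single genes and is not read as a result about the list. The fold change was over 2 in 307 of the higher and 324 of the lower genes, and the median log2 fold change of all genes tested was -0.05. The 3 libraries at ZT16 and the 3 at ZT20 did not overlap in any of the 1071 genes, nor in 3141 of all genes tested (37.4%). Since every gene called was separate in this way, separation is given below as description and adds no support to a call. Of the genes called, 831 are annotated as protein coding, out of 7163 such genes tested. Another 220 are long noncoding RNA genes, out of 1016 tested, split into 110 higher and 110 lower. A partner on the opposite strand was annotated for 71.3% of the genes called and for 55.5% of those tested. Where both genes of an overlapping pair were called, 156 pairs moved the same way and 10 moved in opposite directions. The count fell when 1 library was left out, to between 263 and 393 genes higher and between 284 and 344 lower, and each of the 6 libraries brought both numbers down.

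**Figure D1:**
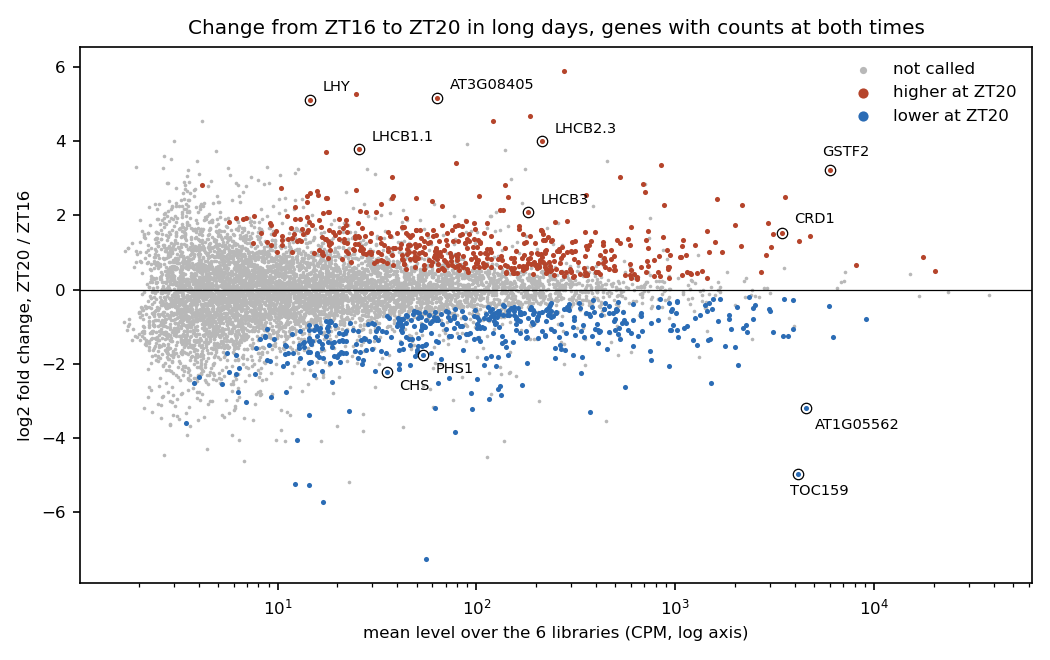
Each point is a gene with counts at both times; the horizontal axis gives its mean level over the 6 LD libraries (CPM, log axis) and the vertical axis its log2 fold change from ZT16 to ZT20. Red points (higher at ZT20) and blue points (lower) passed an adjusted p of 0.05 and grey points did not; LHY, LHCB2.3 and GSTF2 lie high among the genes that rose and TOC159, AT1G05562 and CHS low among those that fell.

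Among the MYB genes of the morning clock RVE1, CCA1 and LHY were at or near 0 at the end of the light period and rose after 4 h of dark. Of the 10 genes listed as MYB factors of the morning loop or their LNK coactivators, 5 were tested and 3 rose, none fell, and the median log2 fold change of those tested was 5.12. The share that rose over all genes tested was 6.39%. RVE1 (AT5G17300, chr5:5690225-5692992), a clock-regulated factor that links the clock to auxin synthesis, had 0 CPM in all 3 at ZT16 and 244, 267 and 265 at ZT20. Every ZT20 library lay far above the empty ZT16 libraries, and with 3 counts over the ZT16 group as the floor the level was at least 874-fold higher (adjusted p = 0.00025). RVE1 and CCA1 passed the filter on low counts only through ZT20, so their calls, bounds and adjusted p are no independent support for a change. Antisense to RVE1 over 225 bp lies the long noncoding RNA gene AT5G17305, which rose too, from 16.4, 16.1 and 8.84 CPM at ZT16 to 316, 366 and 395 at ZT20 (log2 fold change 4.67, SE 0.28, adjusted p = 0.000449). Summed, the locus had a log2 fold change of 5.46 (43.9-fold, adjusted p = 1.72e-05).

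CCA1 (AT2G46830), which represses evening genes in the morning, had 0 CPM in all 3 at ZT16 and 11.9, 9.36 and 9.87 at ZT20, at least 35.1-fold higher (adjusted p = 0.0104). Its close relative LHY (AT1G01060) had 0.606, 1.58 and 0 CPM at ZT16 and 33.2, 27.5 and 24.5 at ZT20 (log2 fold change 5.12, SE 0.78, adjusted p = 0.0117). For both genes all ZT20 libraries lay above all ZT16 libraries, and no gene overlaps either of them. CCA1 was no longer past the threshold without any 1 of the ZT20 libraries (adjusted p up to 0.0703), nor was LHY without ZT16 replicate A or ZT20 replicate A (up to 0.0607). RVE6 and RVE7 had 0 counts in all 6 libraries and RVE8 in all but ZT20 replicates B and C, and none of them was tested. RVE2 and RVE4 did not pass the test, with log2 fold changes of 1.56 (adjusted p = 0.136) and 0.54 (adjusted p = 0.866). LNK2, a coactivator that works with these MYB factors, was not tested because it had 0 counts at ZT16 and in ZT20 replicate A, against 309 and 377 CPM in ZT20 replicates B and C. The long noncoding RNA gene AT3G08405, which overlaps LNK2 by 266 bp, rose from 3.64, 3.95 and 2.29 CPM at ZT16 to 139, 107 and 125 at ZT20 (log2 fold change 5.17, SE 0.26, adjusted p = 0.000304). Summed, that locus had a log2 fold change of 6.59 (adjusted p = 0.000478).

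Since the 3 MYB genes rose together, the 250 bases before each annotated gene start were searched on both strands for the G-box CACGTG, the evening element AAATATCT, the CCA1-binding sites AAAAATCT and AACAATCT, the I-box core GATAAG and the ER stress element, which is CCAAT followed after 10 bases by CACG. The ER stress element ends in the letters that open the G-box, so matches of these motifs may share bases, and each motif was counted on its own. All 3 genes held a G-box, as did RVE2, which did not pass the test, so that 4 of the 10 listed genes had it. The G-box stood in 6.49% of the 27443 windows of protein-coding genes and in 7.47% of the 415 windows of protein-coding genes that rose. The windows are printed because they show where that shared element lies. They come from the RefSeq TAIR10.1 sequence and run 5′ to 3′ on the strand of the gene, from chr5:5692993-5693242 on the minus strand for RVE1, chr2:19245341-19245590 on the plus strand for CCA1 and chr1:37872-38121 on the minus strand for LHY. Capitals mark the G-box, which begins 111, 193 and 80 bases before the start.
RVE1: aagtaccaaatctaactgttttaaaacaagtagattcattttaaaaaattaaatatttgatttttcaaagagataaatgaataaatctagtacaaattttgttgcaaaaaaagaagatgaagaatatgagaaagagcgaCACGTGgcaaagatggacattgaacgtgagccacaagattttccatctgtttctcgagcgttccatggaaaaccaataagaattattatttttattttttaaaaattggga
CCA1: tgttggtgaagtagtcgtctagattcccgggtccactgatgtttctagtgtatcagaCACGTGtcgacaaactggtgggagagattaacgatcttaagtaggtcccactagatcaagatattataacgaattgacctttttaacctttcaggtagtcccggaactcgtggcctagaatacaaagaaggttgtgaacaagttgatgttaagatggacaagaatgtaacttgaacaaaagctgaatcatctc
LHY: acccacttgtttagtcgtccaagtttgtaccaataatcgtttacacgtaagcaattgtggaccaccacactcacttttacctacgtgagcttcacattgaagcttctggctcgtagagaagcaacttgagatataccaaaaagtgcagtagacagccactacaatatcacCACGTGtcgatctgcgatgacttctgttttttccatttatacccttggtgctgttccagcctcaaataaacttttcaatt

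Few genes on the evening side of the clock passed the test. Of 21 listed genes of the evening loop and of photoperiodic flowering, 11 were tested, 1 rose and none fell, with a median of 0.66. Over all genes tested 6.39% rose and 6.38% fell. CDF3 (AT3G47500), a DOF factor that represses the flowering gene CO, had 25.8, 32.4 and 32.4 CPM at ZT16 and 64.9, 68.6 and 73.6 at ZT20 (log2 fold change 1.16, SE 0.15, adjusted p = 0.00736), without overlap between the times. Its relative CDF5 (0.74, adjusted p = 0.0606), the flowering repressor TEM2 (1.63, adjusted p = 0.0555) and CO itself (0.66, adjusted p = 0.0937) had log2 fold changes above 0 that missed the threshold. TOC1, ELF3 and LUX did not pass it either, and PRR7, PRR5 and GI had no counts in any of the 6 libraries. None of the 10 tested photoreceptor and light signalling genes of 19 listed passed the test (median 0.47). Among 8 listed growth genes driven by PIF factors at night, 2 were tested and CKX5 (AT1G75450), which degrades cytokinin, rose from 218, 229 and 215 CPM at ZT16 to 299.7, 309 and 329 at ZT20 (log2 fold change 0.47, SE 0.08, adjusted p = 0.0149). The call for CKX5 ended without ZT16 replicate C, ZT20 replicate B or ZT20 replicate C (adjusted p up to 0.0607), and in 1 fit of all 54 libraries CDF3 had an adjusted p of 0.0909 and CKX5 of 0.0561. UBC16 overlaps CKX5 by 665 bp on the opposite strand and did not pass the test (log2 fold change 0.33, adjusted p = 0.293).

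Many genes for the photosystem antenna rose in the dark. Of 22 listed members 20 were tested, 10 rose and none fell, with a median log2 fold change of 1.22. The share that rose over all genes tested was 6.39%. Of the 10, 9 encode proteins of the photosystem II antenna. LHCB2.3 (AT3G27690, chr3:10255906-10257489) had 30.3, 25.8 and 18 CPM at ZT16 and 424, 388 and 399 at ZT20, 15.9-fold higher (log2 fold change 3.99, SE 0.21, adjusted p = 0.000314). Its partner AT3G27700, which overlaps it by 595 bp, rose from 17.3, 11.6 and 10.5 CPM at ZT16 to 153, 133 and 148 at ZT20 (log2 fold change 3.42, SE 0.23, adjusted p = 0.000667). LHCB1.1 (AT1G29920) had 4.55, 2.63 and 2.95 CPM at ZT16 and 38.4, 49.0 and 55.9 at ZT20 (log2 fold change 3.77, SE 0.30, adjusted p = 0.00123) and has no partner. In all 3 genes the lowest ZT20 library was well above the highest ZT16 library.

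The minor antenna proteins LHCB4 and LHCB6 sit between the major antenna and the photosystem II core. LHCB4.2 (AT3G08940) had 2.73, 4.48 and 4.91 CPM at ZT16 and 19.5, 30.9 and 21.8 at ZT20 (log2 fold change 2.53, SE 0.33, adjusted p = 0.00707), while its paralog LHCB4.1 stood at 49.2 ± 3.0 CPM at ZT16 and 42.4 ± 3.95 at ZT20 (SD, n = 3) and did not pass the test (adjusted p = 0.35). LHCB3 (AT5G54270), which joins the trimers of the major antenna, had 60.3, 62.7 and 79.2 CPM at ZT16 and 301, 289 and 296 at ZT20 (log2 fold change 2.09, SE 0.14, adjusted p = 0.000564), and ATM2, a myosin gene that overlaps it by 186 bp, rose as well (log2 fold change 1.52, adjusted p = 0.00356). LHCB6 (AT1G15820) went from 1129.7, 1442 and 1305 CPM at ZT16 to 3056, 3119.8 and 2842 at ZT20 (log2 fold change 1.18, SE 0.10, adjusted p = 0.0014), and the long noncoding RNA gene AT1G05207 that overlaps it by 358 bp from 837, 994 and 891 CPM at ZT16 to 2256, 2298 and 2212 at ZT20 (log2 fold change 1.28, SE 0.07, adjusted p = 0.000367). The groups were separate in each of these 4 genes that rose.

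The other antenna genes that rose were LHCB1.2, LHCB1.4, LHCB1.5, LHCB2.2 and LHCA4, the only member of the photosystem I antenna among them. Their log2 fold changes were 1.96, 2.23, 1.26 and 1.35, and LHCB2.2, at 0 in all ZT16 libraries, was at least 15.8-fold higher (adjusted p = 0.0487). LHCB2.2 passed the filter on low counts only through ZT20, so its call is no independent support for a change. The span of LHCB1.5, at 19.2 ± 4.18 CPM at ZT16 and 47.3 ± 3.99 at ZT20 (SD, n = 3), is shared over all 1045 bp with the long noncoding RNA gene AT2G08665, which had 10353, 12179.6 and 13917 CPM at ZT16 and 24109.8, 22824 and 22337 at ZT20 and rose as well (log2 fold change 0.89, adjusted p = 0.00599). AT3G08943 overlaps LHCB4.2 by 44 bp and was not tested. The LHCB1 genes are near-identical in sequence, as are those of LHCB2, so the counts of a single copy are uncertain. Leaving out 1 library ended the call of LHCB2.2 and LHCA4 in each of the 6 cases (adjusted p up to 0.204 and 0.0722), of LHCB1.2 in all but ZT16 replicate C (up to 0.133), of LHCB1.5 without ZT16 replicate C or any ZT20 library (up to 0.0665) and of LHCB1.4 without ZT16 replicate C (0.0532). The other 10 members tested did not pass, with log2 fold changes from -1.27 for LHCA5 to 3.31 for LHCB2.1 (adjusted p = 0.699 and 0.0765).

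**Figure D2:**
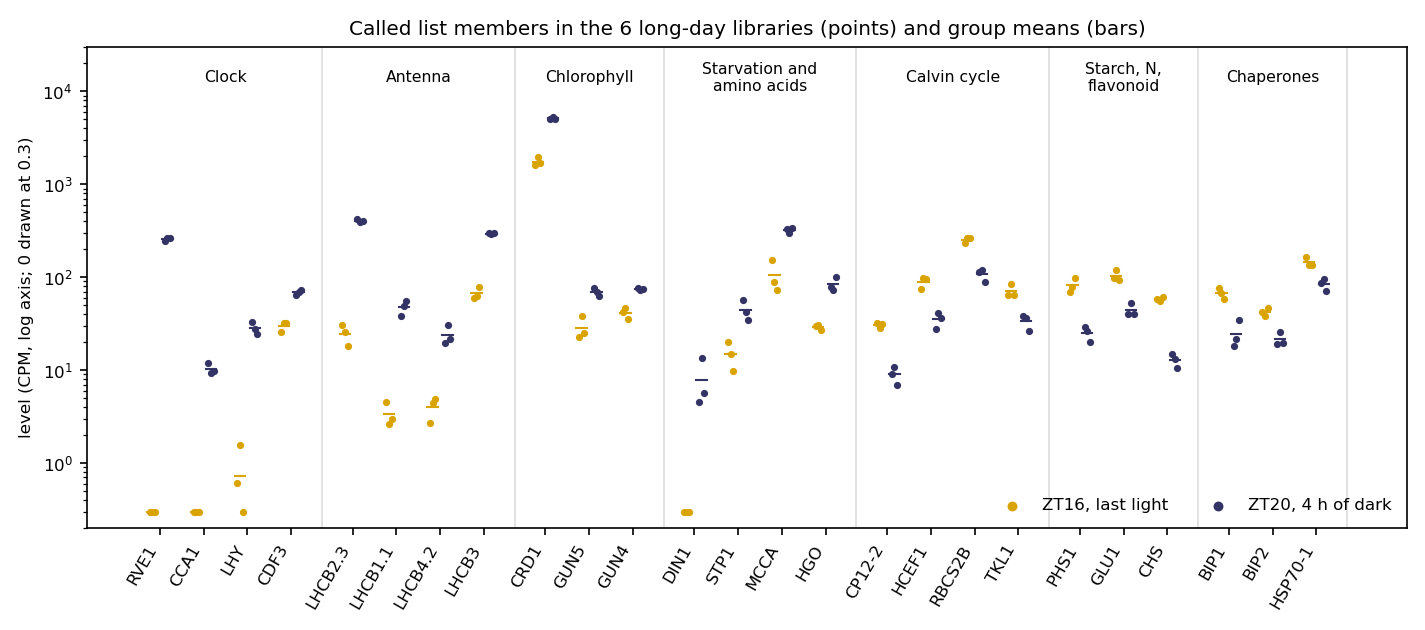
Levels of called list members in each LD library (points; CPM on a log axis, with 0 drawn at 0.3) at ZT16 in yellow and ZT20 in dark blue, with the group mean as a bar. RVE1, CCA1 and DIN1 lie at 0 in all ZT16 libraries, LHCB2.3 moves from 24.7 to 404 CPM on average, and the Calvin cycle and chaperone genes lie lower at ZT20.

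In chlorophyll synthesis 11 of 16 listed genes were tested and 3 rose, against 6.39% of all genes tested, with a median of 0.20. CRD1 (AT3G56940, chr3:21076505-21078443), a subunit of the cyclase that closes the fifth ring of chlorophyll, had 1605, 1945 and 1680.0 CPM at ZT16 and 5052, 5298 and 5065 at ZT20 (log2 fold change 1.52, SE 0.08, adjusted p = 0.000304). AT3G08795, a gene that overlaps it by 259 bp, rose in parallel from 336, 374 and 368 CPM at ZT16 to 1186, 1013 and 1128 at ZT20 (log2 fold change 1.59, SE 0.09, adjusted p = 0.000321). The magnesium chelatase subunit GUN5 (AT5G13630) had 22.7, 38.2 and 25.2 CPM at ZT16 and 75.9, 69.3 and 62.2 at ZT20 (log2 fold change 1.23, SE 0.23, adjusted p = 0.0241), and GUN4 (AT3G59400), which binds porphyrin and activates that enzyme, had 42.1, 46.9 and 35.7 CPM at ZT16 and 75.9, 73.3 and 73.9 at ZT20 (log2 fold change 0.80, SE 0.14, adjusted p = 0.0191). All ZT20 libraries exceeded all ZT16 libraries in these genes. GUN4 and GUN5 stayed past the threshold only without ZT16 replicate B, and the other 5 fits gave adjusted p of up to 0.0734 and 0.093.

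GUN4 shares 946 bp with GCN2 (AT3G59410), a kinase that slows translation when amino acids are short and that lies on the opposite strand. GCN2 had 2214, 2620.4 and 2274 CPM at ZT16 and 6073, 5953 and 5979 at ZT20 (log2 fold change 1.3, SE 0.07, adjusted p = 0.000314), so both genes of the pair rose, with 1.31 for the summed locus. HEMA1, which makes the first committed precursor of chlorophyll, had a log2 fold change of 1.38 that missed the threshold (adjusted p = 0.0952), and the CHLI1, CHLI2 and FLU values of -0.45, -0.68 and -0.53 lay below 0 without passing it.

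The CCA1-binding site AAAAATCT stood before 3 of the 10 antenna genes that rose (LHCB1.1, LHCB1.4 and LHCA4) and before 2 of the 3 chlorophyll genes (CRD1 and GUN4), against 6.69% of all windows and 6.02% of those of protein-coding genes that rose. Over the whole lists the CCA1-binding site stood before 3 of 22 antenna genes and 3 of 16 chlorophyll genes, of which FLU did not pass the test. The G-box stood before 3 of the 10 antenna genes that rose and 5 of the 22 listed. One window of each group is shown with the site in capitals, on the minus strand at chr1:10475970-10476219 for LHCB1.1 and at chr3:21949797-21950046 for GUN4 (TAIR10.1). The site begins 78 and 93 bases before the gene start. The GUN4 window lies wholly within the annotated span of GCN2 (chr3:21948851-21959410) on the opposite strand.
LHCB1.1: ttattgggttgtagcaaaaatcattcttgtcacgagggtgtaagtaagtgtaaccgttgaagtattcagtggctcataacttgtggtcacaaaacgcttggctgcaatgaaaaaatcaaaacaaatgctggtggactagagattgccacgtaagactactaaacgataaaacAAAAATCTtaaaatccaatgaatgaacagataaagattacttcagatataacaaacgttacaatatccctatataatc
GUN4: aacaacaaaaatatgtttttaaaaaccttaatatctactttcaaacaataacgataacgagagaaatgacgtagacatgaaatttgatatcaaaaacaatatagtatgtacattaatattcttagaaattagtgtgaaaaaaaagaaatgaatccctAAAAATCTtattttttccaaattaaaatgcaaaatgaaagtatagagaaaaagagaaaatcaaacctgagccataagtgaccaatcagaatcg

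Part of the carbon fixation genes fell. All 13 listed genes of Rubisco and the Calvin cycle were tested, 7 fell and none rose, with a median log2 fold change of -0.49. The share that fell over all genes tested was 6.38%. CP12-2 (AT3G62410), a small protein that holds Calvin cycle enzymes in an inactive complex in the dark, had 31.8, 28.2 and 31.7 CPM at ZT16 and 9.15, 10.9 and 6.88 at ZT20 (log2 fold change -1.80, SE 0.23, adjusted p = 0.00636). The chloroplast fructose bisphosphatase HCEF1 (AT3G54050) had 74.3, 98.3 and 95.5 CPM at ZT16 and 28.1, 41.5 and 36.2 at ZT20 (log2 fold change -1.38, SE 0.20, adjusted p = 0.0108). RBCS2B (AT5G38420), 1 of the genes for the Rubisco small subunit, had 234, 263 and 263 CPM at ZT16 and 113, 121 and 89.7 at ZT20 (log2 fold change -1.27, SE 0.14, adjusted p = 0.00357). In each of them the highest ZT20 library lay below the lowest ZT16 library.

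TKL1 (-1.10), PGK1 (-0.90), RBCS1B (-0.49) and PRK (-0.48) fell by less on the log2 scale, and RBCS1A (-0.30, adjusted p = 0.274), GAPA (0.02, adjusted p = 0.962) and RCA (0.24, adjusted p = 0.177) did not pass the test. The calls for TKL1, RBCS1B and PRK ended without any 1 of the 6 libraries (adjusted p up to 0.0779, 0.103 and 0.115), and that for PGK1 without ZT16 replicate B or C or ZT20 replicate A or B (up to 0.0726). The RBCS genes are near-identical copies whose reads may be shared. The G-box stood before 3 of the 7 genes that fell and the I-box core before 3, against 6.49 and 12.3% of all windows and 7.21 and 16.8% of the 416 windows of protein-coding genes that fell. Over the whole list of 13 genes the G-box stood before 3 and the I-box core before 4. On the opposite strand AT3G54060 overlaps HCEF1 by 167 bp and was not tested.

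Few starch genes passed the test. Of 17 listed genes of starch breakdown 9 were tested and 1 fell, with a median of -0.36, and of 13 genes of starch synthesis 6 were tested and none passed the test (median -0.35). The share that fell over all genes tested was 6.38%. PHS1 (AT3G29320), the chloroplast phosphorylase that takes glucose units off starch, had 70.0, 79.3 and 99.1 CPM at ZT16 and 29.0, 26.5 and 20.0 at ZT20 (log2 fold change -1.75, SE 0.22, adjusted p = 0.00568), with no overlap between the times. AT3G29330, which overlaps PHS1 by 131 bp, fell too (log2 fold change -0.92, adjusted p = 0.0392). The glucan kinase SEX1 had 21.2, 16.6 and 22.6 CPM at ZT16 and 0, 6.24 and 0 at ZT20, and PHS2, the phosphorylase of the cytosol, 17.9, 17.7 and 5.89 CPM at ZT16 and 0, 0 and 3.59 at ZT20. Their ZT20 values were lower in every library, and 37.4% of all genes tested were separate between the times in 1 direction or the other. The log2 fold changes of -3.30 (SE 1.39) and -3.51 (SE 1.4) did not pass the test (adjusted p = 0.209 and 0.188). For the beta-amylase regulator BAM9 the value was 2.95 (adjusted p = 0.126).

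Few markers of low sugar passed the test after 4 h of dark. Of 25 listed sugar starvation and dark-inducible genes 14 were tested, 2 rose and none fell, and the median log2 fold change was 1.36. The share that rose over all genes tested was 6.39%. DIN1 (AT4G35770), induced by darkness and repressed by sugar, had 0 CPM in all 3 at ZT16 and 4.57, 13.4 and 5.68 at ZT20, at least 26.7-fold higher (adjusted p = 0.0334). It passed the filter on low counts only through ZT20, so its call is no independent support for a change. STP1 (AT1G11260), which carries hexoses into the cell, had 20.0, 15.0 and 9.82 CPM at ZT16 and 56.4, 42.1 and 34.4 at ZT20 (log2 fold change 1.53, SE 0.33, adjusted p = 0.0353). All ZT20 libraries were above all ZT16 libraries for both genes. In KMD1 (2.35, adjusted p = 0.058), KMD2 (1.60, adjusted p = 0.0759) and TPS5 (1.36, adjusted p = 0.0828) the change missed the threshold. The call for DIN1 ended without any 1 of the 6 libraries (adjusted p up to 0.15), and STP1 passed only without ZT16 replicate A (up to 0.121 in the other fits). AT1G11270 overlaps STP1 by 438 bp and had counts in 1 of the 6 libraries, ZT16 replicate B, with the summed locus giving an adjusted p of 0.0859.

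In amino acid catabolism 8 of 12 listed genes were tested and 2 rose, against 6.39% of all genes tested (median 0.50). MCCA (AT1G03090), a subunit of the carboxylase that breaks down leucine, had 153, 88.8 and 73.0 CPM at ZT16 and 334, 297 and 336 at ZT20 (log2 fold change 1.58, SE 0.29, adjusted p = 0.0203). HGO (AT5G54080), which opens the ring of homogentisate in tyrosine breakdown, had 29.7, 30.6 and 26.8 CPM at ZT16 and 78.4, 73.3 and 101 at ZT20 (log2 fold change 1.5, SE 0.17, adjusted p = 0.0045). Both were higher in every ZT20 library than in any at ZT16. MCCA passed only without ZT16 replicate A, with adjusted p of up to 0.0821 in the other fits, and had 0.236 in 1 fit of all 54 libraries. The summed locus of MCCA had a log2 fold change of 1.05 (adjusted p = 0.0081). HGO passed in each of the 6 fits with a library left out, and its summed locus had a log2 fold change of 0.68 (adjusted p = 0.0127), under its own by over 1.5 times. On the opposite strand AT1G03100 overlaps MCCA by 300 bp (log2 fold change 1.09, adjusted p = 0.138) and AT5G54090 overlaps HGO by 790 bp (0.36, adjusted p = 0.131). The other 6 tested genes of the list, among them GDH1 (0.45, adjusted p = 0.586) and GDH2 (0.35, adjusted p = 0.633), did not pass the test.

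Of the 7 genes of nitrogen assimilation, all tested, GLU1 (AT5G04140) alone fell, against 6.38% of all genes tested (list median -0.73). GLU1 encodes the ferredoxin-dependent glutamate synthase of the chloroplast and had 99.1, 119.6 and 92.6 CPM at ZT16 and 40.2, 52.7 and 40.4 at ZT20 (log2 fold change -1.26, SE 0.17, adjusted p = 0.0082), with separate groups. The nitrite reductase NIR1 had a log2 fold change of -1.37 (adjusted p = 0.0778) and the nitrate reductase NIA2 of 0.52 (adjusted p = 0.124).

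In the phenylpropanoid pathway 12 of 20 listed genes were tested and 1 fell, against 6.38% of all genes tested, while the list median was -1.09. CHS (AT5G13930), the entry enzyme of flavonoid synthesis, had 57.6, 55.1 and 61.5 CPM at ZT16 and 14.9, 13.1 and 10.5 at ZT20 (log2 fold change -2.21, SE 0.19, adjusted p = 0.00156), lower in every ZT20 library. Downstream of it, FLS1, which makes flavonols, had 11.8, 15.3 and 12.1 CPM at ZT16 and 0, 0 and 1.5 at ZT20, and F3H 20.0, 25.0 and 25.5 CPM at ZT16 and 13.7, 10.9 and 6.58 at ZT20. These values did not overlap either, but missed the threshold (adjusted p = 0.0549 and 0.0621), as did those of PAL1, the first enzyme of the pathway (log2 fold change -2.35, adjusted p = 0.0713). Such a lack of overlap was found in 37.4% of all genes tested. In 1 fit of all 54 libraries CHS had an adjusted p of 0.0646.

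Glucosinolate synthesis showed 1 gene in each direction among 9 tested of 14 listed (median -0.56). Over all genes tested 6.39% rose and 6.38% fell. CYP79B3 (AT2G22330), which turns tryptophan into indole acetaldoxime, had 13.9, 12.1 and 9.49 CPM at ZT16 and 32.9, 33.4 and 27.5 at ZT20 (log2 fold change 1.36, SE 0.21, adjusted p = 0.0129). CYP83B1 (AT4G31500), the next enzyme of the indole branch, had 10.6, 17.7 and 13.4 CPM at ZT16 and 2.13, 4.37 and 4.79 at ZT20 (log2 fold change -1.91, SE 0.41, adjusted p = 0.0357). Both changed without overlap and in opposite directions. The call for CYP83B1 ended without any 1 of the 6 libraries (adjusted p up to 0.131), and that for CYP79B3 without ZT16 replicate B or ZT20 replicate A or B (up to 0.057).

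Some chaperone and cold-regulated genes fell in the dark. Of 7 listed chaperones 6 were tested, 3 fell and none rose, against 6.38% lower over all genes tested (median -0.92). BIP1 (AT5G28540) had 77.3, 68.0 and 58.9 CPM at ZT16 and 18, 21.5 and 34.4 at ZT20 (log2 fold change -1.5, SE 0.28, adjusted p = 0.0236). BIP2 (AT5G42020), whose reads may be shared with BIP1 since both encode near-identical HSP70 proteins of the endoplasmic reticulum, had 41.8, 38.7 and 47.1 CPM at ZT16 and 19.2, 25.6 and 19.4 at ZT20 (log2 fold change -1.03, SE 0.19, adjusted p = 0.022). HSP70-1 (AT5G02500), a chaperone of the cytosol, had 165, 135 and 134 CPM at ZT16 and 86.9, 96.1 and 71.8 at ZT20 (log2 fold change -0.81, SE 0.16, adjusted p = 0.0261). Each was lower in all ZT20 libraries. Of 11 listed cold-regulated genes 2 were tested and both fell. COR15B (AT2G42530), which protects chloroplast membranes in the cold, went from 50.0, 53.2 and 65.4 CPM at ZT16 to 22.9, 33.7 and 29.0 at ZT20 (log2 fold change -1.02, SE 0.21, adjusted p = 0.0315), and the dehydrin COR47 (AT1G20440) from 67.3, 61.4 and 66.4 CPM at ZT16 to 36.6, 40.2 and 43.4 at ZT20 (log2 fold change -0.74, SE 0.13, adjusted p = 0.0214). Leaving out 1 library ended the calls of HSP70-1, COR15B and COR47 in each case (adjusted p up to 0.0896, 0.104 and 0.0781), and BIP1 stayed past the threshold only without ZT20 replicate C and BIP2 only without ZT20 replicate B (up to 0.0902 and 0.0897 otherwise).

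As a check of the tissue, 10 markers of shoot and root were listed and 4 were tested. LHCB1.1 rose, as above, while the shoot marker RBCS1A (534 ± 22.8 CPM at ZT16 and 447 ± 83.9 at ZT20, SD, n = 3) and the root markers SCR (4.11 ± 2.25 CPM at ZT16 and 4.72 ± 4.21 at ZT20) and SHR (2.65 ± 0.238 CPM at ZT16 and 7.64 ± 1.64 at ZT20) did not pass the test (adjusted p = 0.274, 0.963 and 0.0782). The other 6 markers were too low to test, so the share of root and shoot RNA is described by few genes.

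**Figure D3:**
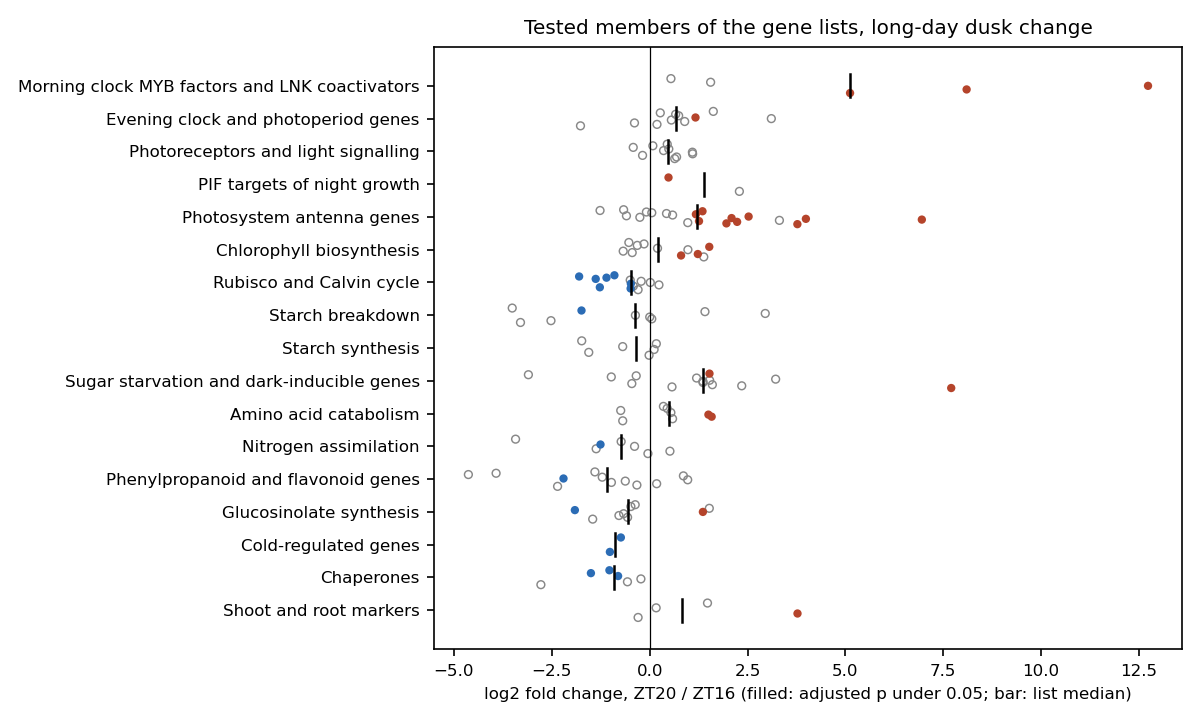
Log2 fold change from ZT16 to ZT20 in LD for each tested member of the 17 lists, 1 row per list; filled red and blue points passed an adjusted p of 0.05, open points did not, and the bar is the list median. RVE1, CCA1, DIN1 and LHCB2.2 are drawn at fitted values that rest on ZT16 libraries at 0, and the medians, which stay the same with these genes at their lower bounds, run from 5.12 for the morning clock genes and 1.36 for sugar starvation to -0.92 for chaperones and -1.09 for phenylpropanoid genes.

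Whether these changes are particular to the switch from light to dark in LD was asked with 4 contrasts from 1 fit of 27 libraries in 9 groups, which tested 12430 genes. The same LD libraries enter all 4 contrasts, and the EQ libraries at ZT16 enter both EQ contrasts, so the contrasts are not independent. Against the same hours in SD, 349 genes (2.81%) changed more positively in LD and 240 (1.93%) more negatively. Against the same hours in EQ these numbers were 261 (2.1%) and 246 (1.98%). Against the dusk of SD they were 242 (1.95%) and 221 (1.78%), and against the dusk of EQ 67 (0.539%) and 35 (0.282%). With library totals in place of TMM the split became 339 and 210 against the same hours in EQ, 192 and 398 against SD dusk and 55 and 80 against EQ dusk, and the median difference over all genes moved to -0.22 and -0.17 in the dusk contrasts. Without replicate A of every group the totals were 286 and 189 for the same hours in SD and EQ and 154 and 37 for their dusks. Leaving out B or C gave totals that fell by over 1.5 times as well.

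Antenna genes rose between ZT16 and ZT20 in all 3 photoperiods, with or without a light change, and fell at the dusk of SD and EQ. Of 21 members tested, 10 rose in LD, 11 over the same hours in SD and 14 in EQ, where 4.42, 1.55 and 1.7% of all genes were higher and 3.46, 1.92 and 1.26% lower. At SD dusk 15 fell and at EQ dusk 11, where 5.27 and 3.31% of all genes were lower and 6.33 and 4.51% higher. The difference from LD was tested directly. Over the same hours 4 members changed more negatively in LD than in SD and 5 than in EQ, and none more positively, while 13 members changed more positively in LD than at SD dusk and 13 than at EQ dusk. For LHCB3 the log2 fold change was 2.11 in LD (adjusted p = 9.61e-08), 4.14 in SD (8.18e-12) and 3.90 in EQ (2.42e-11) over ZT16 to ZT20, and -3.42 (9.2e-11) and -2.89 (1.92e-09) at the dusks of SD and EQ. All 4 differences passed the test, at -2.03 (adjusted p = 2.32e-05) and -1.79 (0.000136) against the same hours and 5.53 (9.33e-12) and 5.01 (1.3e-10) against the other dusks. The level of LHCB3 at ZT16 was 67.4 ± 10.3 CPM in LD, 43.5 ± 10.6 in SD and 26.3 ± 1.66 in EQ, and at ZT20 295 ± 6.39, 792 ± 93.4 and 405 ± 29.1 (SD, n = 3).

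The chlorophyll gene CRD1 rose by 1.54 on the log2 scale in LD and by 2.36 in SD and 2.80 in EQ over the same hours, and the differences of -0.82 (adjusted p = 0.00019) and -1.26 (2.4e-06) passed the test. At SD dusk it fell (-1.70, adjusted p = 3.24e-11), and at EQ dusk its value was -0.26 (0.082). For GUN5 the LD change differed by -2.35 (0.00341) from the same hours in EQ and by 2.92 (0.000474) and 2.69 (0.00331) from the dusks of SD and EQ. GCN2, the partner of GUN4, fell at SD dusk (-1.94) and rose at EQ dusk (0.56), against 1.32 in LD, and the LD value was higher in both tests (adjusted p = 4.19e-13 and 0.0012).

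RVE1, CCA1 and LHY rose over ZT16 to ZT20 in each photoperiod. RVE1 was at 0 at ZT16 in all 9 libraries of the 3 photoperiods and at 258 ± 12.9 CPM in LD, 244 ± 77.9 in SD and 309 ± 16.8 in EQ at ZT20 (SD, n = 3), with adjusted p of 0.00175, 0.00338 and 0.00306. The differences of the LD change from the SD and EQ changes did not pass the test in RVE1 (adjusted p = 1 and 1), CCA1 (1 and 1) or LHY (0.789 and 1), which does not show that they are equal. The partner of RVE1, AT5G17305, was tested without a group at 0 and rose by 4.68, 3.82 and 4.71 on the log2 scale in LD, SD and EQ.

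**Figure D4:**
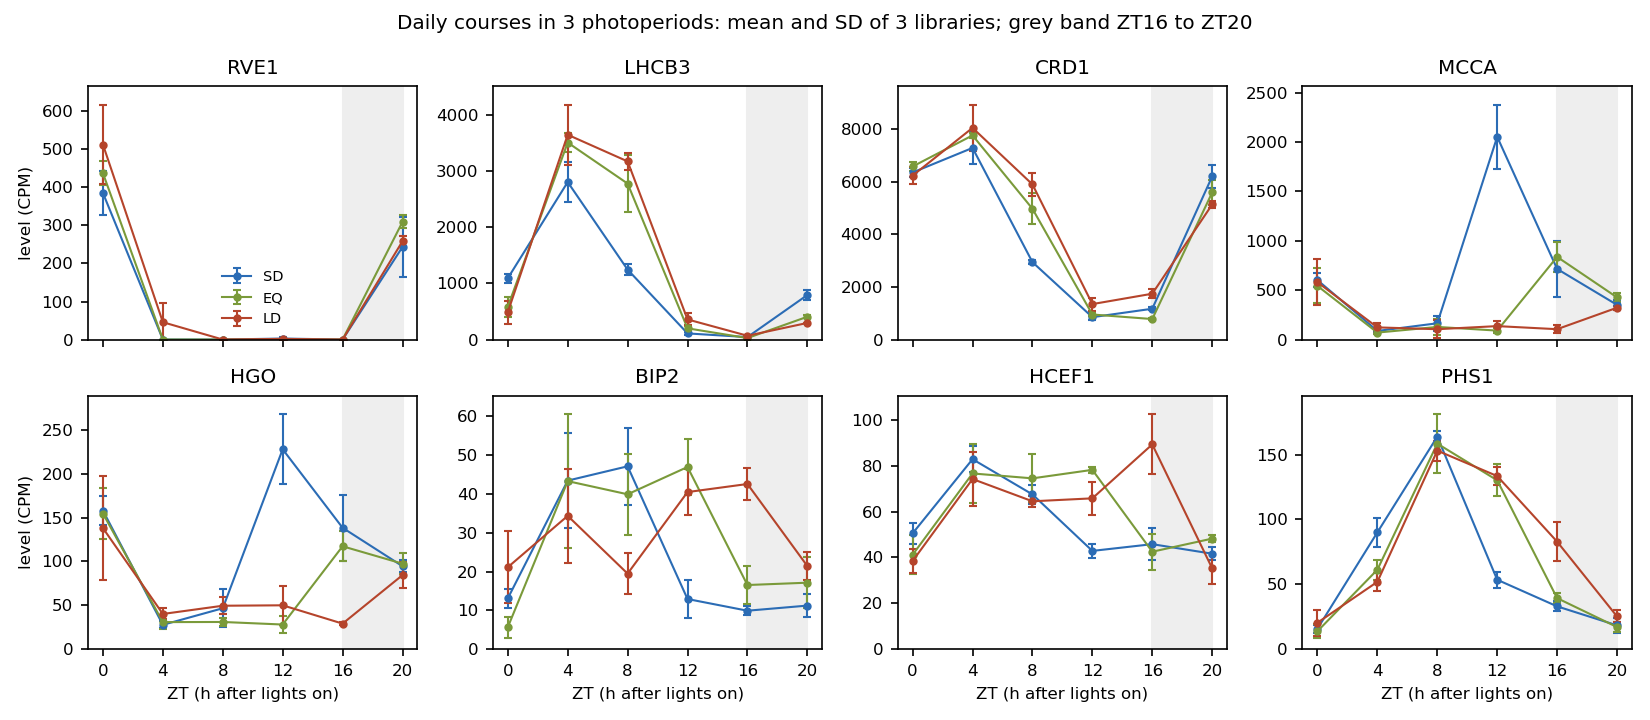
Daily courses of 8 genes in SD (blue), EQ (green) and LD (red), as the mean level (CPM) and SD of 3 libraries against ZT in hours; the grey band marks ZT16 to ZT20. RVE1 and CRD1 climb within the band in all 3 photoperiods, MCCA is highest at ZT12 in SD and at ZT16 in EQ, after 4 h of dark in each, and in LD HCEF1 drops within the band from 89.4 to 35.2 CPM.

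MCCA, HGO, STP1 and DIN1 rose at each of the 3 dusks, and none of them passed the test from ZT16 to ZT20 in SD or EQ, when the night was under way. MCCA rose by 1.60 on the log2 scale at LD dusk, 3.73 at SD dusk and 3.24 at EQ dusk, while from ZT16 to ZT20 it stood at -1.07 in SD and -1.01 in EQ. The LD change was higher than over the same hours (adjusted p = 0.000743 for SD and 0.00115 for EQ) and lower than at SD dusk (difference -2.13, adjusted p = 0.00819). The difference from EQ dusk did not pass (-1.64, adjusted p = 0.12). In CPM the 4 h dark levels were 322 ± 22.1 in LD, 2052 ± 324 in SD and 837 ± 149.9 in EQ.

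HGO changed by 1.52 at LD dusk, 2.39 at SD dusk and 2.09 at EQ dusk, and the LD change exceeded that of the same hours in SD and EQ (adjusted p = 0.00277 and 0.0116). STP1 exceeded it in SD (adjusted p = 0.006) and missed the threshold in EQ (0.0525). DIN1 exceeded both (0.00392 and 0.00686), with 4 h dark levels of 7.89 ± 4.82 CPM in LD, 106 ± 11.7 in SD and 36.6 ± 2.55 in EQ. None of HGO, STP1 and DIN1 passed the test of a difference between LD dusk and the dusk of SD (adjusted p = 0.328, 0.617 and 0.343) or of EQ (0.7, 0.609 and 1). Over the whole list of 22 starvation genes tested in this fit, 5 changed more positively in LD than over the same hours in SD and 3 than in EQ, none changed more negatively, and none differed from either dusk.

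Several genes that fell at LD dusk also fell at the other dusks. BIP1 changed by -1.48, -1.68 and -1.35 at the dusks of LD, SD and EQ, each past the threshold, and by 0.17 and 0.06 over the same hours in SD and EQ, from which LD differed (adjusted p = 0.0139 and 0.0261). HCEF1 changed by -1.36 at LD dusk, -0.57 at SD dusk and -0.85 at EQ dusk, again each past the threshold, and LD differed from the same hours (adjusted p = 0.00226 and 0.000227). Of 13 Calvin cycle and Rubisco genes tested in this fit, only 1 differed from the same hours in SD and 2 from those in EQ. The list median was -0.47 at LD dusk, -0.56 over the same hours in SD and 0.14 in EQ. GLU1 fell in LD by more than over the same hours (-0.94, adjusted p = 0.0465, against SD and -1.63, adjusted p = 0.000603, against EQ) and by more than at SD dusk (-1.5, adjusted p = 0.00166). BIP1 was the only 1 of 6 chaperones tested, and GLU1 the only 1 of 7 nitrogen genes, that differed from the same hours in either photoperiod. PHS1 fell in all 5 intervals, with log2 fold changes of -1.73 in LD and between -0.89 and -1.70 in the others, and no difference from LD passed the test (lowest adjusted p = 0.143).

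**Figure D5:**
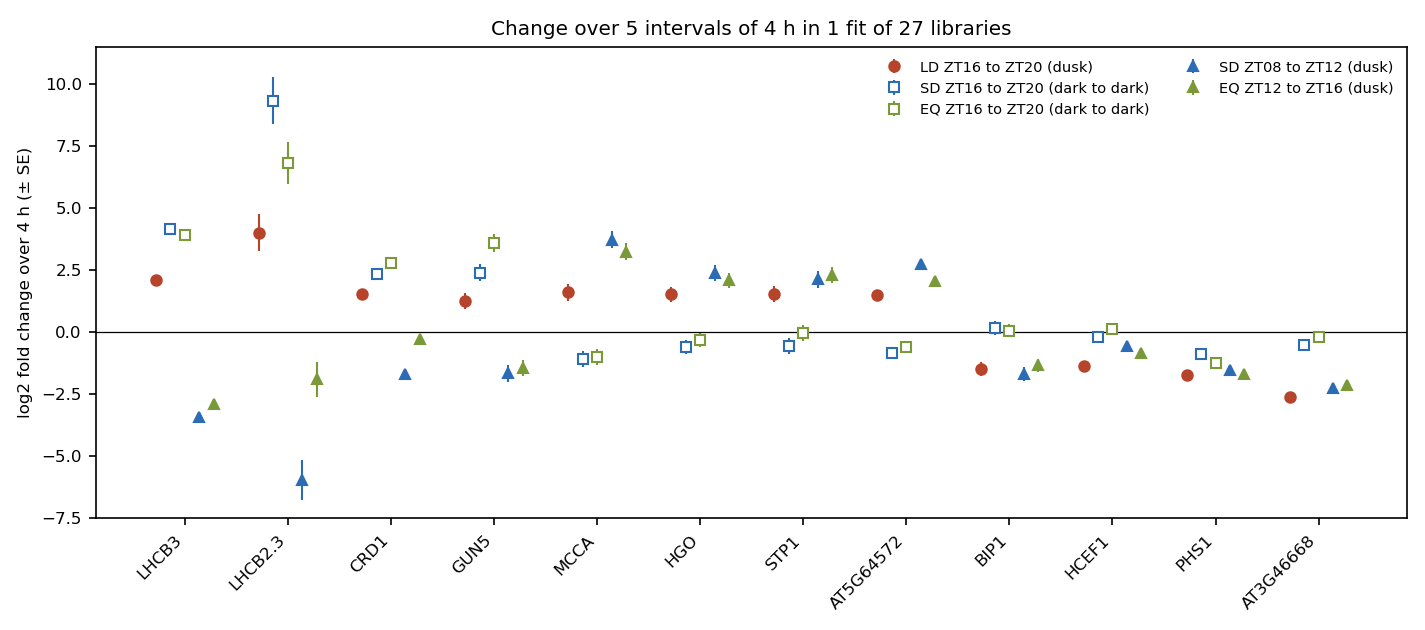
Log2 fold change over 4 h with its SE for 12 genes (horizontal axis) in 5 intervals from 1 fit of 27 libraries: LD dusk (red circles), the same hours in SD and EQ (open squares) and the dusks of SD and EQ (filled triangles). LHCB3, LHCB2.3, CRD1 and GUN5 lie above 0 in LD and over the same hours and below 0 at the dusk of SD, whereas MCCA, HGO, STP1 and AT5G64572 lie above 0 at all 3 dusks.

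The genes with the clearest difference from the same hours were named by rule, up to 3 in each direction for each contrast. AT5G64572, a long noncoding RNA gene that lies over 1436 bp of the beta-xylosidase gene XYL4, had 1601, 1457 and 1724 CPM at ZT16 and 4626, 4572 and 4579 at ZT20 (log2 fold change 1.49, SE 0.08, adjusted p = 0.000304), and XYL4 rose from 153, 89.1 and 120.4 CPM at ZT16 to 454, 465 and 429 at ZT20 (log2 fold change 1.86, adjusted p = 0.00398). AT5G49640 had 391, 339 and 335 CPM at ZT16 and 862, 840.4 and 795 at ZT20 (log2 fold change 1.19, SE 0.09, adjusted p = 0.000834), and AT2G08680 75.5, 79.8 and 62.5 CPM at ZT16 and 159, 169 and 152 at ZT20 (log2 fold change 1.11, SE 0.13, adjusted p = 0.00427). In these 3 genes every LD library at ZT20 lay above all at ZT16, and the genes changed by -0.86, -0.43 and -1.17 over the same hours in SD. AT5G49645 overlaps AT5G49640 by 680 bp and FAH1 (AT2G34770) overlaps AT2G08680 by 217 bp, and neither partner was tested. The summed locus of AT2G08680 did not pass (adjusted p = 0.681).

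In the other direction AT3G46668, a long noncoding RNA gene that overlaps the glycosyltransferase gene UGT76E11 by 1809 bp, had 954, 939 and 989 CPM at ZT16 and 162, 161 and 154 at ZT20 (log2 fold change -2.63, SE 0.07, adjusted p = 0.000107), and UGT76E11 did not pass the test (-1.28, adjusted p = 0.276). AT1G08477, which overlaps the sulfate assimilation gene APR2 by 782 bp, had 4636, 4962 and 4948 CPM at ZT16 and 2009, 1999 and 2267 at ZT20 (log2 fold change -1.25, SE 0.07, adjusted p = 0.00033), and APR2 fell with it (-1.11, adjusted p = 0.0059). AT2G23672 had 2952, 3026 and 2814 CPM at ZT16 and 1538, 1451 and 1397 at ZT20 (log2 fold change -1.04, SE 0.06, adjusted p = 0.000314), while YCF37, a photosystem I assembly gene over 709 bp of it, did not pass the test (0.47, adjusted p = 0.0624). All 3 were lower in each ZT20 library. AT1G08477 rose over the same hours by 1.56 in SD and 2.08 in EQ and changed at SD and EQ dusk by -2.09 and -1.55, both past the threshold.

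A further set differed between LD dusk and the dusk of SD or of EQ. AT4G13505, which lies over 1709 bp of the ammonium transporter gene AMT1;1, had 3937, 4276 and 4434 CPM at ZT16 and 1986, 1894 and 2029 at ZT20 (log2 fold change -1.13, SE 0.06, adjusted p = 0.000353) and rose by 0.53 at SD dusk, while AMT1;1 did not pass the LD test (-0.85, adjusted p = 0.0909). AT5G58570 had 338, 355 and 350.5 CPM at ZT16 and 215, 169 and 178 at ZT20 (log2 fold change -0.93, SE 0.11, adjusted p = 0.005) and rose at SD dusk by 1.80, and its partner AT5G08840 did not pass the LD test (-1.97, adjusted p = 0.455). AT2G36470, without a partner, had 176, 212 and 218 CPM at ZT16 and 34.8, 52.1 and 63.1 at ZT20 (log2 fold change -2.05, SE 0.24, adjusted p = 0.00497), changed over the same hours in SD and EQ by -2.07 and -1.53, both past the threshold, and had -0.08 and -0.37 at their dusks, neither past the threshold. In all 3 genes the ZT16 and ZT20 libraries of LD were separate. AT4G00163 had 1442, 1476 and 1564 CPM at ZT16 and 372, 392 and 334 at ZT20 (log2 fold change -2.07, SE 0.08, adjusted p = 0.000212), with its partner AT4G00165 falling as well (-2.03, adjusted p = 0.000594). The difference of AT4G00163 from EQ dusk was -0.73, smaller than its LD fall, so its fitted change at EQ dusk was below 0 as well. AT5G25940 fell from 336, 301 and 326 CPM at ZT16 to 228, 212 and 249 at ZT20 (log2 fold change -0.52, SE 0.10, adjusted p = 0.023), and its call ended without ZT16 replicate A or C or ZT20 replicate A or B (adjusted p up to 0.0848). The difference of AT2G36470 from EQ dusk did not pass without replicate A or B of all groups (adjusted p = 0.114 and 0.195), nor that of AT4G00163 without A, B or C (0.18, 0.12 and 0.0732).

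The largest fitted changes belonged to genes with counts at 1 time only. Of the genes called, 31 of those higher had 0 counts in all ZT16 libraries and 62 of those lower had 0 in all ZT20 libraries. Of all genes tested, 33 had 0 in all ZT16 libraries and 64 in all ZT20 libraries. These genes, RVE1, CCA1, DIN1 and LHCB2.2 included, passed the filter on low counts only through the group where they had counts. Their calls and adjusted p are therefore no independent support for a change. Among named genes 23 were at 0 in a group, 16 of these have an opposite-strand partner, and the partner was called in 7 cases. The bounds given for these genes hold for the deposited counts, which StringTie estimated from read coverage, and whether that estimate put a gene at 0 was not tested. With overlapping opposite-strand genes summed, 14 of the 16 loci passed the test, at folds of 1.73 to 129 in place of the bounds. TAP38 (AT4G27800), a phosphatase of the photosystem II antenna, had 169, 229 and 166 CPM at ZT16 and 0 in all 3 at ZT20, at least 616-fold lower (adjusted p = 0.000578). All 6 libraries of SD and EQ at ZT20 held it, at 129 ± 9.54 and 141 ± 6.32 CPM (SD, n = 3), while the 3 EQ libraries at ZT00 had none. AT4G27790, which overlaps TAP38 by 197 bp, had 57.6, 71.7 and 52.7 CPM at ZT16 and 48.5, 39.9 and 46.1 at ZT20 and did not pass the test (log2 fold change -0.47, adjusted p = 0.145). Summed, the locus had a log2 fold change of -2.49 (adjusted p = 0.000116). In 1 fit of all 54 libraries the difference of TAP38 from EQ dusk had an adjusted p of 0.13, and without replicate A or B of all groups of 0.373 and 0.331.

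The glycolytic phosphoglycerate mutase iPGAM1 (AT1G09780) had 354, 326 and 355 CPM at ZT16 and 0 in all 3 at ZT20, at least 1129.7-fold lower (adjusted p = 0.000212). EARLI1 (AT4G12480), a lipid transfer protein of the cell wall, had 156, 134 and 205 CPM at ZT16 and 0 in all 3 at ZT20, at least 541-fold lower (adjusted p = 0.00101), and the cytochrome P450 CYP81D11 had 110.4, 85.9 and 90.3 CPM at ZT16 and 0 in all 3 at ZT20, at least 313-fold lower (adjusted p = 0.000667). Each was at 0 in all libraries at ZT20. Their partners fell as well, CDC5 opposite iPGAM1 (-0.48, adjusted p = 0.0109), AT4G12485 opposite EARLI1 (-2.35, adjusted p = 0.0442) and HMG opposite CYP81D11 (-2.31, adjusted p = 0.00339). The summed loci had log2 fold changes of -1.31, -7.01 and -4.55, each past the threshold. The others were AT1G14810, RPP5, AT4G00880, AT5G66720, AT5G43440 and PMP22, which were between 134-fold and 1135-fold lower at least. In 1 fit of all 54 libraries the adjusted p was 0.161 for iPGAM1, 0.0708 for EARLI1, 0.269 for AT1G14810, 0.103 for AT4G00880, 0.273 for AT5G66720 and 0.0658 for AT5G43440, past the threshold in none of them. The partners of RPP5 (AT4G16955, -0.64) and AT5G43440 (AT5G06505, -3.23) fell, that of AT5G66720 (AT5G09685, 0.41) rose, those of AT1G14810 (AT1G05123, 0.62) and AT4G00880 (AT4G00883, -0.36) did not pass the test and that of PMP22 (AT4G04480) was not tested. The summed loci had log2 fold changes of -2.90 for AT1G14810, -1.06 for RPP5, -0.90 for AT4G00880, -3.58 for AT5G43440 and -1.02 for PMP22, all past the threshold, and of -0.13 for AT5G66720 (adjusted p = 0.405).

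In the higher direction CXXS1 (AT1G11530), a thioredoxin-like protein, had 0 CPM in all 3 at ZT16 and 152, 156 and 171 at ZT20, at least 539-fold higher (adjusted p = 0.000314). The RNA polymerase II subunit gene NRPB11 had 0 CPM in all 3 at ZT16 and 84.5, 72.4 and 64.6 at ZT20, at least 249.7-fold higher (adjusted p = 0.000834), and ACR9, a protein with amino acid binding ACT domains, 0 CPM in all 3 at ZT16 and 15.9, 14.3 and 22.1 at ZT20, at least 59.0-fold higher (adjusted p = 0.0051). All were at 0 at ZT16. AT2G33390, ATZW10, AT4G13575, AT1G15840, CIPK1 and PIE1 completed the set with at least 39.7-fold to 281-fold higher levels. The partner of CXXS1, AT1G04853, did not pass the test (0.06, adjusted p = 0.868), and in 1 fit of all 54 libraries CXXS1 had an adjusted p of 0.28, NRPB11 of 0.27, AT2G33390 of 0.221, ATZW10 of 0.289, AT4G13575 of 0.0785 and PIE1 of 0.215. CIPK1 did not pass without any 1 of the ZT20 libraries (adjusted p up to 0.0597), nor PIE1 without ZT20 replicate B or C (up to 0.069). The partners of NRPB11 (CHX28, 0.02), AT2G33390 (AT2G08575, 0.09), ATZW10 (RALFL17, 0.56) and PIE1 (MYB10, -0.31) did not pass the test either. The summed loci had log2 fold changes of 1.33 for CXXS1, 1.44 for NRPB11, 0.79 for AT2G33390 and 0.94 for ATZW10, all past the threshold, and of 0.21 for PIE1 (adjusted p = 0.611).

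An overlapping pair with the opposite pattern was found among the genes with the most counts. TOC159 (AT4G02510, chr4:1104429-1111784), the receptor for protein import into chloroplasts, had 8047, 6632 and 9443 CPM at ZT16 and 287, 251 and 251 at ZT20 (log2 fold change -4.97, SE 0.17, adjusted p = 0.000168). GSTF2 (AT4G02520, chr4:1110343-1112033), a glutathione transferase antisense to it over 1442 bp, had 1140.3, 973 and 1331 CPM at ZT16 and 11722, 10556 and 10506 at ZT20 (log2 fold change 3.21, SE 0.14, adjusted p = 0.000212). TOC159 held 87.2 to 87.6% of the counts of the pair at ZT16 and 2.32 to 2.39% at ZT20. Summed, the locus had a log2 fold change of 0.26 (adjusted p = 0.254). In the fit of 27 libraries the adjusted p of the LD change was 0.177 for TOC159 and 0.0587 for GSTF2.

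The other called genes with the most counts included 4 long noncoding RNA genes that overlap a coding gene. AT1G05562, which shares 2136 bp with the glucosyltransferase gene UGT75B1, had 10029, 7309 and 7345 CPM at ZT16 and 1044, 884 and 845 at ZT20 (log2 fold change -3.19, SE 0.17, adjusted p = 0.000304), and UGT75B1 did not pass the test (0.32, adjusted p = 0.0861), with -2.46 for the summed locus (adjusted p = 2.87e-05). AT3G05905 had 2661, 2523 and 2415 CPM at ZT16 and 7053, 6887 and 7143 at ZT20 (log2 fold change 1.44, SE 0.05, adjusted p = 0.000168), while AT3G05900, over 2780 bp of it, had -0.24 (adjusted p = 0.73). AT2G08665, given above opposite LHCB1.5, was another. The 2 times were separate in each of these genes. Of the rest, AT1G72600 (0.50) and AT4G16983 (0.67) rose and AT4G38775 (-1.28), AT4G37409 (-0.78) and AT1G09927 (-0.43) fell. PRP4, a cell wall protein gene on the opposite strand of AT4G38775, fell as well (-1.26, adjusted p = 0.000212), as did CYP81F4, an indole glucosinolate gene opposite AT4G37409 (-0.77, adjusted p = 0.00106).

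The study picked exemplar genes for its expression subgroups from these same libraries, so their values here are no independent evidence of a pattern. WRI4 (AT1G79700), an AP2 factor of wax synthesis, had 58.5, 50.3 and 38.0 CPM at ZT16 and 226, 221 and 220.1 at ZT20 (log2 fold change 2.15, SE 0.17, adjusted p = 0.00129), and the long noncoding RNA gene AT5G09285 had 202, 193 and 202 CPM at ZT16 and 593, 578 and 608 at ZT20 (log2 fold change 1.54, SE 0.07, adjusted p = 0.000222). AT4G28652 had 152, 182 and 194 CPM at ZT16 and 483, 428 and 436 at ZT20 (log2 fold change 1.32, SE 0.12, adjusted p = 0.00199). The libraries of the times were separate in these 3 genes. The exemplar AT3G07835 fell from 341, 438 and 418 CPM at ZT16 to 134, 126 and 140.0 at ZT20 (log2 fold change -1.61, SE 0.12, adjusted p = 0.000943), the polyubiquitin gene UBQ14 from 889, 946 and 997 CPM at ZT16 to 665, 738 and 712 at ZT20 (log2 fold change -0.46, SE 0.07, adjusted p = 0.0147) and AT1G07993 from 319, 342 and 379 CPM at ZT16 to 259, 243 and 222 at ZT20 (log2 fold change -0.56, SE 0.10, adjusted p = 0.0229). The partners of AT5G09285, AT4G28652, UBQ14 and AT1G07993 passed the test in the same direction as the gene itself (1.44, 1.36, -0.60 and -0.57). Those of WRI4 (AT1G09907, 1.94, adjusted p = 0.0725) and AT3G07835 (GTR1, -2.25, adjusted p = 0.412) did not pass. UBQ14 did not pass without ZT16 replicate B or C or ZT20 replicate A or C (adjusted p up to 0.0624), and AT1G07993 passed only without ZT16 replicate A (up to 0.0837). WRI4 changed by 2.86 and 2.78 at the dusks of SD and EQ and by -0.63 and -0.44 over ZT16 to ZT20 there, and LD differed from the same hours (adjusted p = 1.9e-05 and 6.59e-05) but not past the threshold from the dusks (0.354 and 0.575). For AT4G28652 none of the 4 differences passed (lowest adjusted p = 0.157).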

How the data were processed

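RNA from whole seedlings was sequenced from an mRNA library kit as paired reads. Per the labels and the methods, the authors trimmed reads with Trimmomatic 0.39, aligned them with HISAT2 2.1.0 to TAIR10 (Ensembl) joined with the spike-in sequences, assembled with StringTie 2.1.2 and exported gene counts with its prepDE script. The deposited table holds these counts, 1 column per library, without normalisation, and no column belongs to no sample (0 such columns). StringTie turns read coverage into counts, so a count is not a tally of read pairs.

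Spike-in rows were left out of library sizes and tests. Of 32833 genes 32548 were matched to the RefSeq TAIR10.1 annotation, which gave names, positions, partners and sequences, and 18376 had a count in the 6 LD libraries. LD ZT20 was tested against LD ZT16 with edgeR 4.0.16 (R 4.3.3): TMM factors, filterByExpr with a minimum count of 10, and the quasi-likelihood test with Benjamini-Hochberg adjustment, called at an adjusted p under 0.05. The 4 differences between changes came from 1 such fit of 27 libraries in 9 groups. Every adjusted p in the text comes from these fits unless another fit is named. Standard errors of log2 fold changes were taken from the test statistic. The procedure was tested on simulated counts. These did not model genes at 0 in a whole group or reads divided between opposite-strand partners. A gene at 0 in a whole group was given a floor of 3 counts over that group.

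Named genes were the 10 largest changes in each direction among those called whose mean was 5 CPM or more and whose groups did not overlap, the 5 with the highest mean CPM in each direction, up to 4 called members in each direction of each of 17 lists (243 genes), the 3 with the lowest adjusted p in each direction for each of the 4 differences, and the exemplars. The members and lists were chosen with earlier results of these data known. Other list members were named after their values were seen. Alternatives were size factors from DESeq2 1.42.0, library totals, upper quartile, its Wald test, limma-voom (limma 3.58.1), the exact test of edgeR, other filters, a fit of all 54 libraries, a replicate block and leaving out replicates. Figures were drawn with matplotlib 3.10.9. Replicates are separate plates, so p-values measure the spread between plates.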

Additional observations from a re-analysis of the deposited data

Results flagged for a closer look

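These genes differed, by the test of the difference itself, between the LD dusk change and the same hours of another photoperiod. Relative to SD the LD log2 fold change was higher by 1.64 in AT5G49640, 2.37 in AT5G64572 and 2.29 in AT2G08680, and the difference was -2.79 in AT1G08477, -2.37 in AT1G05207 and -2.1 in AT3G46668. Relative to EQ it was higher by 2.51 in AT2G08680, 1.4 in AT5G49640 and 2.1 in AT5G64572, and the difference was -3.31 in AT1G08477, -2.40 in AT3G46668 and -1.70 in AT2G23672.

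The tested difference from another dusk stood out in a second set. Relative to SD dusk it was 3.26 in GCN2, 3.24 in CRD1, 4.41 in AT1G05207, -1.65 in AT4G13505, -1.07 in AT5G25940 and -2.71 in AT5G58570. Relative to EQ dusk it was 3.65 in AT1G05207, 6.96 in AT3G08405, 5.01 in LHCB3, -0.73 in AT4G00163, -1.66 in AT2G36470 and -11.58 in TAP38. The value of TAP38 was fitted against LD libraries at 0, so it is no bound. In 1 fit of all 54 libraries the difference of AT5G25940 from SD dusk did not pass (adjusted p = 0.979). These genes were listed because they had the lowest adjusted p among genes also called in LD, and the 4 differences share the LD libraries.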

How the results depend on the processing

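The number of genes called depended on the processing more than their direction did. Without a filter on low counts, 326 genes were higher and 310 lower, since 18376 genes were tested. In 1 fit of all 54 libraries 515 were higher and 351 lower. Size factors of DESeq2, library totals, the upper quartile, a minimum count of 30, the exact test, limma-voom and the Wald test of DESeq2 gave between 410 and 775 higher and between 428 and 757 lower. After the data were seen, 2 further alternatives were added. With overlapping opposite-strand genes summed, 465 loci were higher and 448 lower, and with genes at 0 in a whole group left out 479 and 442. Leaving out 1 library gave 263 to 393 higher and 284 to 344 lower. Leaving out a replicate letter gave 240.0 to 294 genes that differed from the same hours in SD, 163 to 244 from those in EQ, 153 to 230.0 from SD dusk and 37 to 57 from EQ dusk. Splits in the fit of all 54 libraries were 290.0 more positive and 111 more negative against SD dusk and 77 and 14 against EQ dusk.

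The replicate letters do not pair the samples, as libraries with the same letter had correlations of their deviations from the group means of 0.0118 (A), -0.0186 (B) and 0.00106 (C). With a replicate block 144 genes were higher and 152 lower, and the 4 differences gave 537, 480.0, 458 and 102 genes against 589, 507, 463 and 102 without it. Of 88 named genes over 18 settings, 1309 of 1558 values kept direction and call, 248 kept the direction but missed the threshold and 1 reversed. The reversal was TOC159, whose log2 fold change was 0.26 once summed with GSTF2.

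Of the named genes 59 were called whichever library was left out and 10 in none of the 6 cases. The replicate block ended the calls of 45 of the 88, among them CCA1 (adjusted p = 0.196), LHY (0.0807), PHS1 (0.0714), CP12-2 (0.0655), MCCA (0.0678) and HGO (0.0561), and summing overlapping genes those of 6. No filter ended the calls of 17, among them GUN4 (adjusted p = 0.0652), BIP2 (0.0698) and PRK (0.156). The fit of all 54 libraries ended 27, among them LHCB1.5 (0.404), TOC159 (0.209) and GSTF2 (0.073), the exact test 13 and limma-voom 6, DIN1 (0.129) and LHY (0.0642) included. For these the cause was not tested. With 3 plates per group and 2763127 to 3473953 counts per library, genes without about 10 counts in at least 3 libraries were not tested. Values of 0 do not show that a gene was off.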
